A study of Arabidopsis thaliana with 12 samples.

Results

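Nuclear genes of plastid ribosomal proteins were followed on arrays of Arabidopsis thaliana plants with and without a defect in plastid protein import. The genes were taken as the loci AT4G01310, AT3G54210, AT5G65220, AT1G29070, AT1G64510 and AT3G13120, each the only gene named for its probe, and they are 6 of the 691 loci that such probes measured. They are called here by the protein names in general use, PRPL5, PRPL17, PRPL29 and PRPL34 for the large subunit and PRPS6 and PRPS10 for the small one, because the reference lists them by locus tag only. PRPL34 and PRPS6 lie on chromosome 1, PRPL17 and PRPS10 on chromosome 3, PRPL5 on chromosome 4 and PRPL29 on chromosome 5. Coordinates are left out because the array design names no genome build.

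Plastids translate their own genes on ribosomes of the bacterial type. The rRNAs and some proteins of these ribosomes are encoded in the plastid genome, whereas most ribosomal proteins are encoded in the nucleus, made in the cytosol as precursors and imported through the translocons of the outer and inner envelope, TOC and TIC. The 6 transcripts therefore encode proteins that are imported into plastids. Their products are needed to make the plastid-encoded subunits of the photosystems and of Rubisco. How far their import depends on the translocon component affected in toc160 was not tested.

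Total RNA of the wild type (WT) and of the toc160 mutant, both of ecotype Wassilevskija, was hybridised to 6 single-channel arrays per group, with replicates numbered 1 to 6 in each. Toc160 is an earlier name of the receptor Toc159, which recognises precursor proteins at the outer envelope; the labels name neither the allele, the tissue, the age nor the growth conditions. Nothing states that replicates were separate plants, and arrays 1 and 2, 3 and 4, and 5 and 6 of a group were close to duplicates (Spearman correlation 0.983 to 0.990, against 0.871 to 0.945 between other arrays of a group). Each such pair was therefore averaged and counted as 1 sample, so that errors are SDs over 3 pair averages (n = 3). The p-values concern the spread between these samples, which may be technical. In the limma tests used below the variance of each locus is also drawn towards a value common to all tested loci. These p-values thus do not rest on the spread of the locus alone. The deposited intensities are linear, from 0 to 100, with array medians of 0.477 to 0.551 in WT and 0.627 to 0.646 in toc160; precision is limited by how few arrays there are. In bulk RNA such as this, fewer cells of a type and less RNA per cell cannot be told apart.

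The comparison of toc160 with WT asked whether transcripts of plastid ribosomal proteins differ when import across the outer envelope is impaired. None of the 5 genes with a measurable signal passed the test after quantile normalization (limma, Benjamini-Hochberg adjustment over 652 loci, threshold 0.05), and 0 of the 5 had an unadjusted p under 0.05. Of the 652 loci tested, 1.07% passed (7 loci). Blocking by replicate pair raised that share to 14.4% (94 loci), and 0 of the 5 genes passed there too, again with 0 at an unadjusted p under 0.05. In the deposited intensities all 5 were higher on average in toc160, but so were 89.6% of all tested loci. The median log2 difference of the 5 genes was 0.37 as deposited and 0.04 after normalization, against 0.35 and 0.04 for all tested loci.

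**Figure D1:**
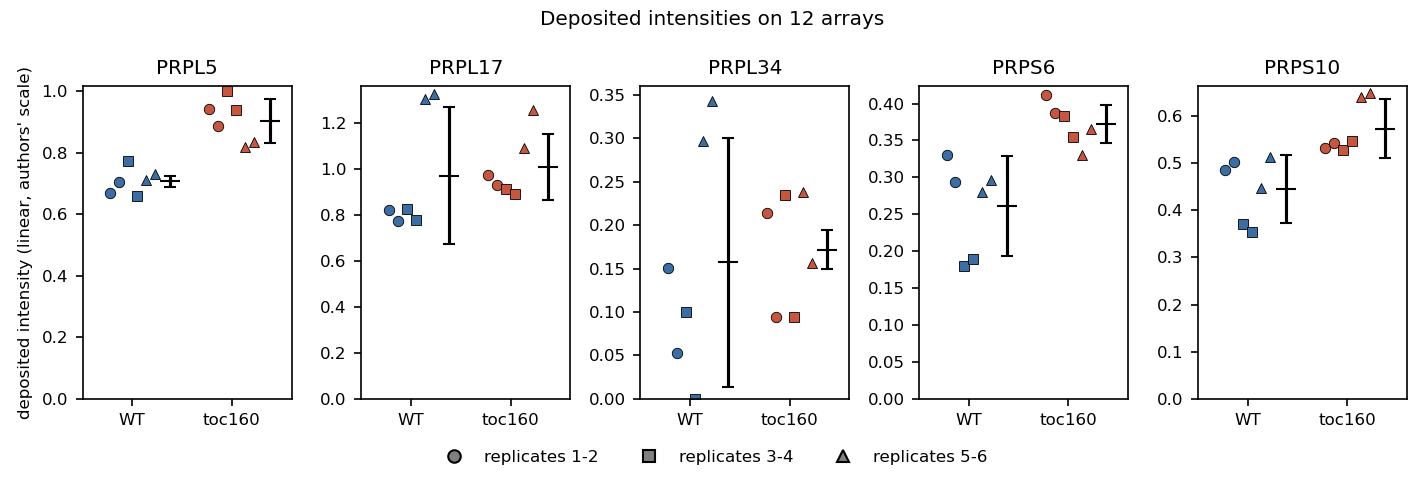
Deposited intensity (linear, on the authors' scale) of the 5 genes with a signal, on 6 WT arrays (blue) and 6 toc160 arrays (red); marker shapes give the replicate pairs and black bars the mean ± SD over 3 pair averages. The WT and toc160 points do not overlap for PRPL5 and PRPS10, and the triangles of replicates 5 and 6 stand above the others for PRPL17 in both groups.

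PRPL5 encodes the protein that in bacteria binds the 5S rRNA in the central protuberance of the large subunit and touches the tRNA of the peptidyl site. Its deposited intensities on WT replicates 1 to 6 were 0.669, 0.706, 0.774, 0.659, 0.712 and 0.730. On toc160 replicates 1 to 6 they were 0.942, 0.889, 1.001, 0.941, 0.819 and 0.834. Every toc160 array was thus above every WT array, with averages of 0.708 ± 0.0182 over WT pairs and 0.904 ± 0.0729 over toc160 pairs (SD, n = 3). Of all tested loci, 18.9% showed the same separation upwards in the deposited values. The quantile-normalized log2 difference was 0.08 (SE 0.16, 95% interval -0.28 to 0.44, limma adjusted p 0.956), a fold of 1.06 with an interval of 0.826 to 1.36. After normalization the 12 arrays of PRPL5 overlapped between groups. Of the 5 genes, 2 were free of overlap as deposited and 0 after normalization, where 3.68% of tested loci separated upwards and 4.45% downwards.

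The product of PRPL17 sits near the exit of the nascent-chain tunnel in the bacterial large subunit. PRPL17 had deposited intensities of 0.820, 0.773, 0.825, 0.778, 1.306 and 1.329 on WT replicates 1 to 6. On toc160 replicates 1 to 6 they were 0.973, 0.932, 0.912, 0.893, 1.093 and 1.257. Replicates 5 and 6 were the highest of their group in both WT and toc160, and the groups overlapped. It averaged 0.972 ± 0.299 over WT pairs and 1.01 ± 0.145 over toc160 pairs (SD, n = 3). The normalized log2 difference was -0.15 (SE 0.21, 95% interval -0.63 to 0.33, limma adjusted p 0.948). As deposited it was 0.09 (limma adjusted p 0.805), 0.26 below the median of all loci. Within each of the 3 pairs, both normalized toc160 values of PRPL17 lay below both WT values, with log2 ratios of -0.07, -0.09 and -0.28. PRPL17 was the only 1 of the 5 genes whose normalized ratio had the same sign in all 3 pairs, against 52.6% of tested loci. In the deposited values the 3 ratios were 0.26, 0.17 and -0.17, so both toc160 arrays were above WT in replicates 1 to 4 and below WT in replicates 5 and 6.

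PRPL34 encodes a small basic protein of the large subunit that binds the 23S rRNA in bacteria. Its probe was dim, with deposited intensities of 0.151, 0.0522, 0.0995, 0, 0.297 and 0.343 on WT replicates 1 to 6. On toc160 replicates 1 to 6 they were 0.213, 0.0947, 0.234, 0.0940, 0.238 and 0.157. WT held both the lowest and the highest value, and the groups overlapped. WT replicate 4 was listed at 0 and entered the fit at the floor of 0.0364. The normalized log2 difference was -0.11 (SE 0.49, 95% interval -1.24 to 1.02, limma adjusted p 0.965). That interval spans folds of 0.423 to 2.03, the widest of the 5 genes, and the sign changed to positive as deposited (0.42), with median centring (0.12) and with cyclic loess (0.02). Without replicates 5 and 6 the log2 difference was 0.42, and without replicates 3 and 4 it was -0.58. In the 5 pairs with both arrays above 0, near-duplicate arrays differed by 1.15 to 2.89 times for this gene, against 1.01 to 1.18 times for the other 4. The probe, number 511, lies 3 numbers from probe 514, which had a mean intensity of 30.4 and normalized log2 ratios of 0.86, 0.87 and 0.41 in the 3 pairs. The part of that neighbour in the values of PRPL34 was not tested.

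PRPL29, whose bacterial counterpart lies at the tunnel exit beside the docking site for factors that receive the nascent chain, was listed at 0 on all 12 arrays. It is 1 of 26 loci at 0 on every array, so its values give neither a level nor a difference.

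PRPS6 encodes a protein of the small subunit that in bacteria pairs with S18 on the platform. Its deposited intensities on WT replicates 1 to 6 were 0.330, 0.293, 0.180, 0.190, 0.281 and 0.296. On toc160 replicates 1 to 6 they were 0.412, 0.387, 0.383, 0.355, 0.330 and 0.365. WT replicates 3 and 4 were the lowest of all arrays, the toc160 arrays lay close together, and the groups met at WT replicate 1 and toc160 replicate 5. It averaged 0.261 ± 0.0676 over WT pairs and 0.372 ± 0.026 over toc160 pairs (SD, n = 3). The normalized log2 difference was 0.12 (SE 0.22, 95% interval -0.39 to 0.64, limma adjusted p 0.956). By pair the normalized log2 ratios were -0.10, 0.53 and -0.05, so the positive mean rested on replicates 3 and 4, and without that pair the difference was -0.08.

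PRPS10 encodes a protein of the head of the small subunit, which in Escherichia coli also acts in transcription antitermination. Its deposited intensities on WT replicates 1 to 6 were 0.485, 0.503, 0.371, 0.354, 0.447 and 0.513. On toc160 replicates 1 to 6 they were 0.532, 0.543, 0.527, 0.547, 0.641 and 0.649. All toc160 arrays were above all WT arrays in these values, with averages of 0.446 ± 0.0722 over WT pairs and 0.573 ± 0.0622 over toc160 pairs (SD, n = 3). After normalization the groups overlapped, and the log2 difference was 0.04 (SE 0.18, 95% interval -0.39 to 0.46, limma adjusted p 0.965). The pairs went in opposite directions, with normalized log2 ratios of -0.28 in replicates 1 and 2, 0.20 in replicates 3 and 4, and 0.20 in replicates 5 and 6.

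The 3 genes that were higher with no or little overlap as deposited, PRPL5, PRPS6 and PRPS10, had deposited log2 differences of 0.35, 0.54 and 0.37. On unblocked pair averages they did not pass (limma adjusted p 0.184, 0.174 and 0.218), where 1.38% of loci did, and with the pair as a block all 3 passed (limma adjusted p 0.0309, 0.0326 and 0.0393), as 52.1% of tested loci did in that direction. In the fit of 6 arrays against 6 as deposited, which counts near-duplicates as separate, 3 of the 5 genes passed as well, beside 43.3% of loci in that direction. Measured against the median of all tested loci in those values, PRPL5 was at 0.00081, PRPS10 at 0.02 and PRPS6 at 0.19. Under median centring and cyclic loess, 0 of the 5 passed and 0 had an unadjusted p under 0.05, against 1.69% and 0.613% of loci called without the block and 9.97% and 13.8% with it.

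**Figure D2:**
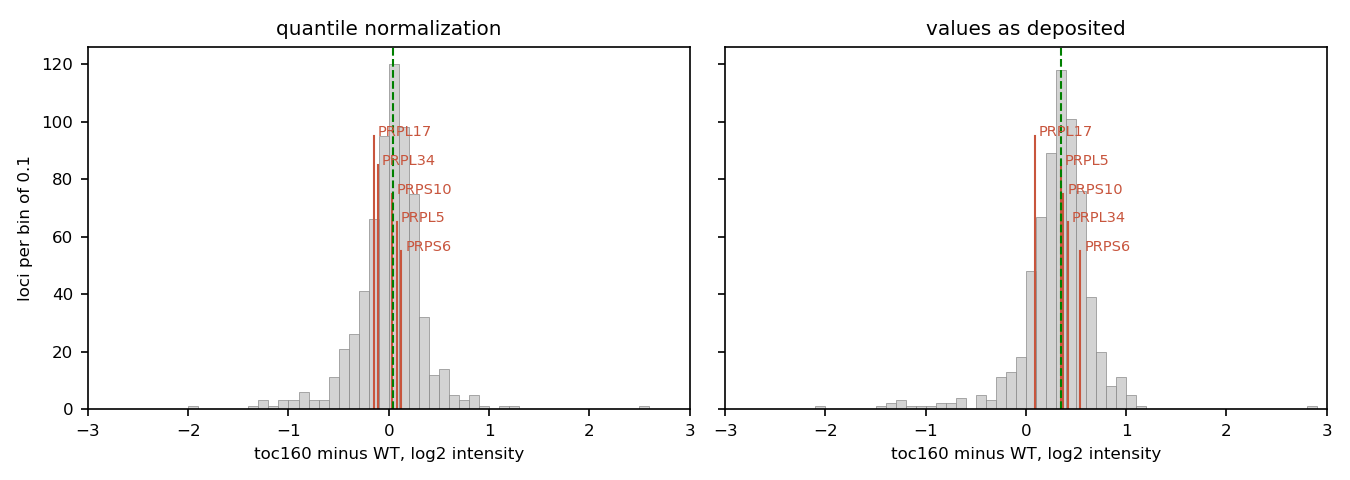
Histograms of the toc160 minus WT log2 difference for the 652 tested loci, after quantile normalization (left) and as deposited (right), in bins of 0.1; red lines mark the 5 ribosomal protein genes and the dashed green line the median of all loci. The 5 genes lie within the bulk of both distributions, and the bulk as deposited is centred at 0.35.

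**Figure D3:**
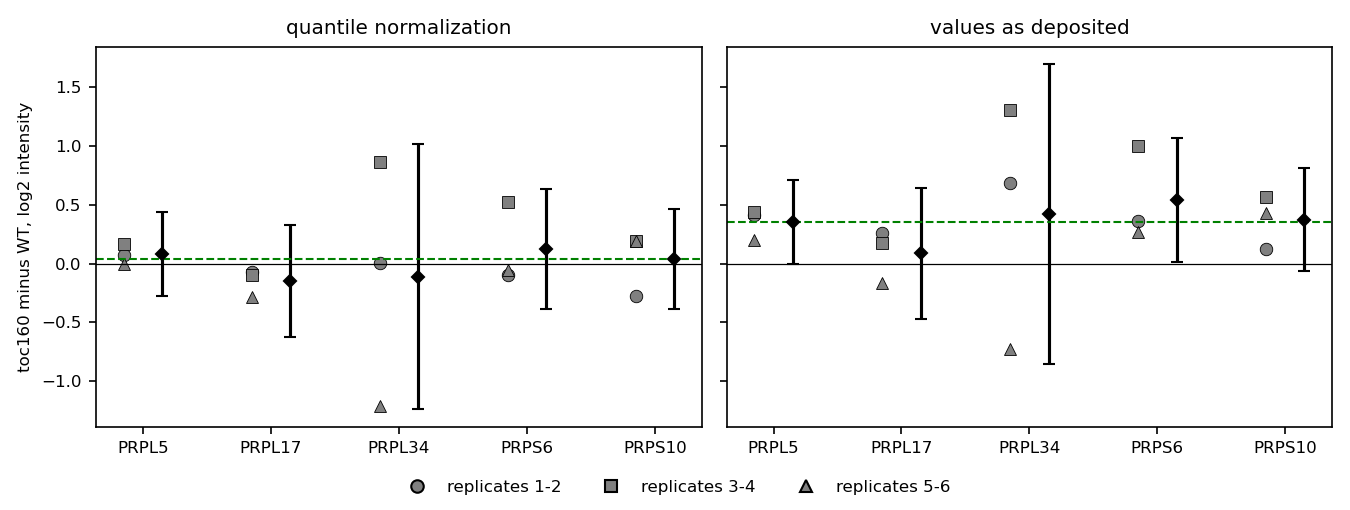
Log2 ratio of toc160 over WT in each replicate pair (grey markers) and the fitted difference with its 95% interval (black diamonds), after quantile normalization (left) and as deposited (right); the dashed green line is the median of all tested loci. PRPL34 spans the widest range of pair ratios, from -1.21 to 0.87 after normalization.

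How far the ratio of toc160 to WT moved from pair to pair differed between the genes. For PRPL34 the range of the 3 normalized log2 ratios was 2.08, wider than in 99.7% of tested loci, whose median range was 0.32. The ranges of PRPS6 (0.63) and PRPS10 (0.47) were wider than in 87.1% and 75.2% of loci, and those of PRPL5 (0.17) and PRPL17 (0.21) wider than in 19.0% and 25.6%. The ratio was highest in replicates 3 and 4 for 3 of the 5 genes (PRPL5, PRPL34 and PRPS6), against 33.1% of tested loci. For PRPL34 both this rank and the range of 2.08 depend on WT replicate 4, which entered at the floor. Its normalized log2 value there was -4.78, against -2.88 on WT replicate 3. The ratio of PRPS10 was nearly equal in replicates 3 and 4 (0.1954) and in replicates 5 and 6 (0.1958). With each pair counted once, no residual was left to test whether ratios differed between pairs.

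A second comparison asked whether the levels themselves differed between replicate pairs in WT and toc160 alike. The labels give these pairs no meaning, and the study's reason for them is not known here. The F test of the pair term in limma had genotype in the model. Its residual was the genotype-by-pair variation of a locus, drawn towards a value common to all tested loci. By this test 46.5% of the 652 loci passed at the threshold of 0.05, and 2 of the 5 genes did, PRPL17 and PRPL34. That count is close to the background share, which was 36.3% as deposited, 41.9% with median centring and 49.2% with cyclic loess.

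PRPL17 was higher in replicates 5 and 6 than in the mean of the other pairs, by a normalized log2 difference of 0.52 in WT (1.43-fold) and 0.32 in toc160 (1.25-fold), with an F-test adjusted p of 0.0317 (limma). The call held under every scaling tried (limma adjusted p 0.0215 to 0.0471), and was lost without WT replicate 4 (0.0502) or toc160 replicate 6 (0.0741), without replicates 3 and 4 of both genotypes (0.102), with no filter on loci (0.0726) and with no genotype term (0.157). For PRPL34 the log2 rise in replicates 5 and 6 was 1.80 in WT (3.48-fold) and 0.16 in toc160 (1.11-fold), with a limma adjusted p of 0.046. The rise thus lay mostly in WT, and the call does not show a difference alike in both genotypes. This call was lost as deposited (0.0802), with median centring (0.0637) and without any of WT replicates 1, 3, 4 and 5 or toc160 replicates 1, 2, 4 and 5 (0.0647 to 0.335). It was also lost without replicates 3 and 4 of both genotypes (0.118), with the floor at the 5th percentile (0.363), with no filter (0.357) and with no genotype term (0.179). The SD between near-duplicate arrays of PRPL34 was 0.84 on the normalized log2 scale, no smaller than its SD between pair averages of 0.81. For PRPL17 these SDs were 0.07 and 0.26, and for the median locus 0.11 and 0.25. Without either other pair 0 of all tested loci passed, so those fits say nothing about single genes.

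PRPS6, PRPS10 and PRPL5 did not pass between pairs (limma adjusted p 0.0954, 0.282 and 0.462). PRPL5 was the steadiest of the 5, with a range over the 3 pair levels of 0.17 on the normalized log2 scale, and 11.2% of tested loci had a smaller one. On the normalized scale the 3 genes PRPL34, PRPS6 and PRPS10 had their lowest of 6 pair averages in WT replicates 3 and 4, which was the lowest for 15.2% of tested loci. For PRPL34 this rests on WT replicate 4, at the floor (-4.78). WT replicate 3 was at -2.88, above the average of toc160 replicates 3 and 4 (-2.97). On the same scale PRPL17 and PRPL34 had their highest in WT replicates 5 and 6, the highest for 22.1% of loci. PRPS6 and PRPS10, the small-subunit genes, had their highest in WT replicates 1 and 2, the highest for 14.0% of loci. In the deposited values the highest moved to toc160: PRPS6 to replicates 1 and 2 (0.399, against 0.312 in WT replicates 1 and 2), and PRPS10 to replicates 5 and 6 (0.645, against 0.494 in WT replicates 1 and 2).

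**Figure D4:**
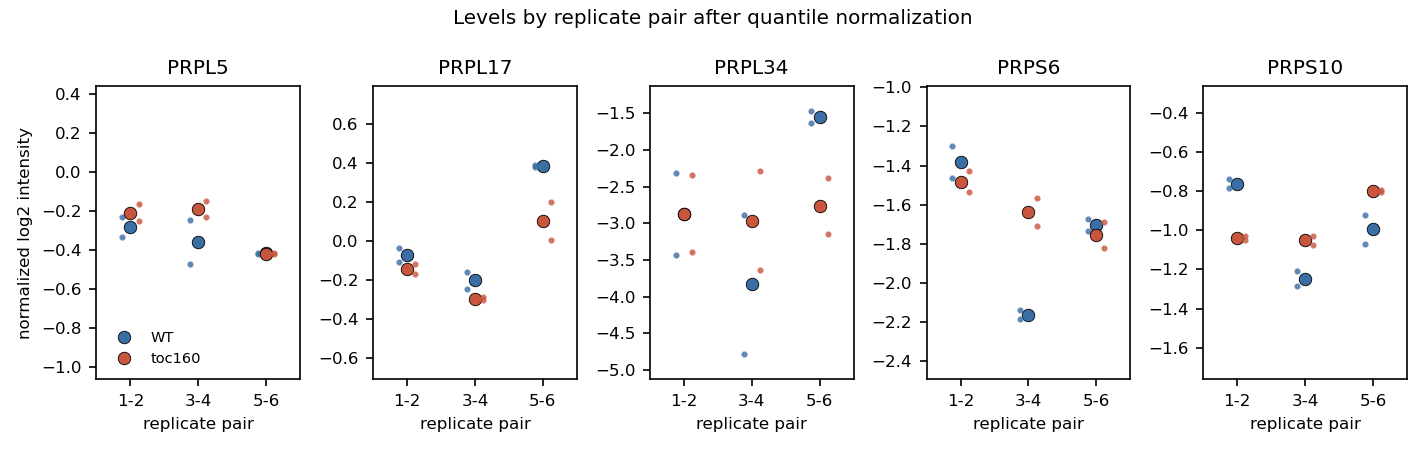
Quantile-normalized log2 intensity by replicate pair in WT (blue) and toc160 (red); large points are pair averages and small points single arrays, and the vertical span is equal in all panels except PRPL34, where it is wider. PRPL17 stands highest in replicates 5 and 6 in both groups, and PRPS6 and PRPS10 stand lowest in WT replicates 3 and 4.

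The 5 transcripts did not vary as 1 block. Over 12 arrays of normalized log2 intensity, which share replicate pairs and scaling, Pearson's r between 2 genes ranged from -0.60 to 0.65 over the 10 combinations, with a median of 0.33, against 0.00087 over all combinations of tested loci. PRPS6 and PRPS10 went together with r = 0.64, as did PRPL17 and PRPL34 with r = 0.65. For PRPL34, WT replicate 4 was at the floor. The SD of PRPL34 between near-duplicate arrays was 0.84, no smaller than 0.81 between pair averages. PRPL5 and PRPL17 went opposite ways with r = -0.60. Of the 10 normalized coefficients 2 were negative, against 105996 of the 212226 combinations of tested loci. In the deposited values, where the shift common to most loci remained, all 10 coefficients were positive (0.08 to 0.85, median 0.46, against 0.33 over all tested loci). Of the 212226 combinations, 61408 were negative as deposited.

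The loci most like each gene were sought over 12 arrays among the 639 loci above 0 on every array. PRPL17 was most like LpxA, an acyltransferase of lipid A-type synthesis (r = 0.95), and OTP70, a pentatricopeptide repeat protein needed for splicing of a plastid transcript (r = 0.94). For PRPS6 the closest locus was AT4G33760 (r = 0.87), followed by AT2G31800 (0.84). AT5G38310 (0.85) and AT5G34870 (0.84) were closest to PRPL5, AT5G44000 (0.89) and AT3G04500 (0.80) to PRPL34, and AT1G61990 (0.78) and AT4G19160 (0.77) to PRPS10. No member of the family was among the 2 closest loci of another. PRPL34 and PRPL29 could not be, since they were not above 0 on every array. The few other members stood among 639 loci, so this says little on whether the family varies together. The mean of the 5 standardised profiles was most like AT2G31800 (0.85), AT4G19160 (0.82) and AT3G04500 (0.79). These coefficients describe 12 arrays with near-duplicates and are the highest among all candidates.

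Other genes of plastid gene expression were scarcely measured by probes naming a single gene. Of 41 listed nuclear genes of plastid ribosomal proteins, the 6 described here were measured. Of 19 listed organellar aminoacyl-tRNA synthetases, which charge tRNAs for plastid and mitochondrial translation, 1 was measured, AT4G33760, and 0 passed. It averaged 0.366 ± 0.124 over WT pairs and 0.469 ± 0.129 over toc160 pairs (SD, n = 3), with a normalized log2 difference of 0.01 (SE 0.30, 95% interval -0.69 to 0.71, limma adjusted p 0.986). It did pass between pairs (limma adjusted p 0.00472), as did 46.5% of tested loci. The listed plastid translation and ribosome assembly factors (21), plastid transcription proteins (20), mitochondrial ribosomal proteins (7), cytosolic ribosomal proteins (38) and seed storage proteins (7), the last a marker of other tissue, had 0 measured members each, so the family could not be set against other ribosomes.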

How the data were processed

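The deposited intensity values, linear and non-negative, were used as the authors gave them; their scanning, background correction and scaling are not stated in the labels or the file. The platform annotation named 1 gene for 692 of 3439 probes, several for 870 and none for 1877; 690 of the 692 matched the TAIR10.1 gene table, and the 2 probes of 1 locus were averaged, which left 691 loci. All probes were quantile normalized, which removes a shift common to most probes, values below 0.0364 (the 1st percentile of positive intensities) were raised to it, and log2 was taken. Loci above 0 on at least 6 arrays (652) were fitted with limma 3.58.1 in R 4.3.3 on averages of replicates 1 and 2, 3 and 4, and 5 and 6. PRPL29 did not pass this filter. The replicate numbers pair the groups. The correlation between WT and toc160 arrays of 1 number, each taken as its deviation from the group mean, was 0.482 to 0.733 in all 6 cases. Pair-blocked values are therefore given where they change a call or a count of calls. After normalization the blocked SEs were 0.105 for PRPL5, 0.107 for PRPL17, 0.294 for PRPL34, 0.138 for PRPS6 and 0.126 for PRPS10. The SEs and intervals printed with each gene above come from the unblocked fit.

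The fits were tested on simulated data. Alternatives were other scalings, floors, filters, blocks, all probes, and leaving out arrays or pairs. Named loci follow a rule: the 6 genes, the 2 most correlated loci of each, the 3 of their mean, and listed genes with a single-gene probe. The members and the lists were chosen with earlier results of these data known. Sequences of the genes were not used here.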

Additional observations from a re-analysis of the deposited data

Results flagged for a closer look

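PRPS10 is given because its toc160 arrays lay apart from the WT arrays in opposite directions in different pairs, as they did for 16.6% of tested loci and for no other of the 5 genes. The range of its ratio was narrower than that of PRPL34 (2.08) or PRPS6 (0.63). After quantile normalization both toc160 arrays lay below both WT arrays in replicates 1 and 2 (log2 ratio -0.28), and above them in replicates 3 and 4 (0.20) and in replicates 5 and 6 (0.20). The ratio thus differed by 0.474 between replicates 3 and 4 and replicates 1 and 2, and by 0.475 between replicates 5 and 6 and replicates 1 and 2; the difference was not tested, since no residual remains with each pair counted once. In the deposited values both toc160 arrays were above WT in all 3 pairs (0.12, 0.57 and 0.43). Of 10 groups of 6 arrays checked for a single array apart from the rest, 0 held one. A near-duplicate beside such an array hides it from this check, so arrays that lie apart as a pair would be missed.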

How the results depend on the processing

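The count of 0 of the 5 genes past the threshold between toc160 and WT held under every alternative except 2 fits of the deposited values, with the replicate block by pair and with 6 arrays against 6, where 3 of the 5 passed each time; the filter above 0 on all 12 arrays tested 4 genes, without PRPL34, and that on the dimmest 25% tested 3, without PRPL34 and PRPS6. Over all tested loci 7 passed on unblocked pair averages. The count was 11 with median centring, 4 with cyclic loess, 15 with a pseudocount of 0.1, 3 with no filter, 17 without the dimmest 25% of loci and 72 over all probes. With the replicate block by pair it was 94, or 362 as deposited, 65 with median centring and 90 with cyclic loess. With 6 arrays against 6 it was 65 without a block, 306 so as deposited, 195 with the replicate block by number and 20 with the pair as a random block. Settings that join the deposited values, median centring or cyclic loess with a block or with 6 arrays against 6 were chosen after seeing the data. Leaving out arrays or pairs gave 0 to 10; the 0 came on leaving out any 1 pair, which leaves 2 samples a group.

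As deposited, in each of 3 fits, the log2 difference turned positive for PRPL17 (0.0871) and PRPL34 (0.42); that of PRPL34 was also positive with median centring (0.12) and cyclic loess (0.0217). Leaving out arrays or pairs moved PRPL5 between 0.0361 and 0.121, PRPL17 between -0.189 and -0.0816, PRPL34 between -0.58 and 0.42, PRPS6 between -0.0779 and 0.23 and PRPS10 between -0.0457 and 0.19. The same sign in all 3 pairs was shown by 3 genes and 74.5% of tested loci as deposited, against 1 gene and 52.6% after normalization. Of the 2 genes free of overlap as deposited, 0 remained so after quantile normalization.

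Between pairs, 303 loci passed, against 196 with the floor at the 5th percentile, 90 with no filter, 36 without the genotype term and 0 to 304 on leaving out arrays or pairs (0 without pair 1-2 or 5-6, 184 without 3-4). Of the 5 genes 2 passed, against 1 as deposited, with median centring and with the higher floor. The count was 0 with no filter or no genotype term, and 0 to 2 on leaving out arrays or pairs. It was 1 above 0 on all 12 arrays and without the dimmest loci, 2 filters that left PRPL34 untested. PRPL17 passed under both of these filters (limma F-test adjusted p 0.0231 and 0.00639). The cause of the other shifts was not tested. PRPL34 had the widest interval of the 5 genes, and PRPL29, at 0 on all arrays, gives no value.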
